A study of Homo sapiens with 6 samples.

Results

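The genes described here are 46 that encode proteins of the synaptic vesicle, the presynaptic active zone and their close partners, out of 23596 gene symbols on the array. They were found by gene name, or by another symbol of the same Entrez gene ID, and are measured by 85 probe sets of 45033. The list was drawn up with earlier results of these data in view, in which CPLX1, AP3B2 and CEND1 stood out between the shRNAs. The values that involve the SET8 shRNA arrays are therefore given as a description, with no test. The list is also wider than a strict vesicle and active zone set, since NRXN2, NRXN3, NLGN1, NLGN2, NLGN3, DLG4 and HOMER1 belong to synaptic adhesion and the postsynaptic side, and CEND1 is a neuronal protein outside both.

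Single-colour NimbleGen arrays labelled with Cy3 were run on HEK293 cells, a human embryonic kidney line, in 3 groups of 2 arrays. The groups were SET8 shRNA with Wnt3a conditioned medium, control shRNA with Wnt3a conditioned medium, and control shRNA with control medium; all cells had been transfected for about 40 hours and held in their medium for 7 hours. The labels name the reagent as shRNA, while the sample titles write si and the series text speaks of siRNA transfection. No group joins SET8 shRNA to control medium in these arrays, so the response to Wnt3a under SET8 shRNA was not measured. Nothing says that replicate arrays came from separate cultures, so their spread may be technical.

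Neurons release transmitter by fusing vesicles with the plasma membrane at the active zone. Synapsins hold vesicles in reserve, RAB3 GTPases and the scaffolds bassoon, piccolo and RIM bring them to the release site, UNC13 proteins prime them, and a complex of SNARE proteins drives fusion under the control of complexins and of synaptotagmins, which sense calcium. Clathrin adaptors, dynamin and amphiphysin then retrieve the membrane. Many of these genes are kept low outside neurons and endocrine cells by the repressor REST, which binds an element called RE1, although HEK293 cells are known to express a number of neuronal genes.

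Array medians lay between 7.63 and 7.79 on the log2 scale, and the random control probes between 4.66 and 4.84. KMT5A, the gene of SET8, read 8.97 and 9.65 in the SET8 shRNA arrays, 11.20 and 10.53 in the control shRNA arrays in Wnt3a medium and 11.03 and 10.75 in control medium on its brighter probe set, so the targeted mRNA was lower under its shRNA in both arrays. NKD1, a Wnt feedback gene, read 10.52 and 10.92 in the SET8 shRNA arrays. It read 11.61 and 11.63 in the control shRNA arrays in Wnt3a medium and 8.97 and 8.70 in control medium. AXIN2, also checked for Wnt3a, read 9.25 and 10.04 in the SET8 shRNA arrays on its brighter probe set. It read 10.0 and 9.47 in the control shRNA arrays in Wnt3a medium and 8.55 and 7.79 in control medium. Between the shRNAs in Wnt3a medium NKD1 differed by -0.90 (SE 0.25) and AXIN2 by -0.09 (SE 0.38), with -0.19 (SE 0.44) on its second probe set. Replicate arrays were unequally close: more than 2-fold apart were 1.86% of 23808 tested probe sets between the SET8 shRNA arrays, 8.98% between the control shRNA arrays in Wnt3a medium and 6.87% between those in control medium. Of the neuronal markers TUBB3, GAP43, ENO2 and UCHL1 were above the array median in all 6 arrays, 4 of 11, while RBFOX3, DCX, STMN2, ELAVL3 and ELAVL4 were below the array median in every array. Of 8 epithelial and kidney line markers 7 were above the array median in at least 2 arrays, CDH1 and PAX2 not in all, and PAX8 was not.

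A probe set was tested when it lay above the array median in at least 2 of the 6 arrays. By that rule 31 of the 46 genes were measured well enough to test, 21 of them above the median in all 6 arrays, and 15 were not. The 15 dim genes were CPLX2, SYT1, SYT2, SYT4, SYT5, SYT11, SNAP25, SNAP91, RAB3C, RIMS1, RIMS2, UNC13A, SV2B, SV2C and NLGN1, with mean log2 intensities of 4.78 to 6.86 on their brightest probe sets. SNAP25, the SNARE partner of syntaxin at neuronal synapses, had 4.75 and 5.17 in the SET8 shRNA arrays, 5.04 and 4.61 in the control shRNA arrays in Wnt3a medium and 4.67 and 4.46 in control medium. SYT1, the calcium sensor of fast release, likewise lay between 4.68 and 5.21 on its brighter probe set in the 6 arrays. Both were close to the random control probes in every group. Some genes entered the test through 1 side of a comparison only: SYN1, BSN and PCLO were above the median in no SET8 shRNA array, and NRXN2 and RAB3D in no control medium array. Counts are therefore given over all 46 genes, dim ones included.

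**Figure D1:**
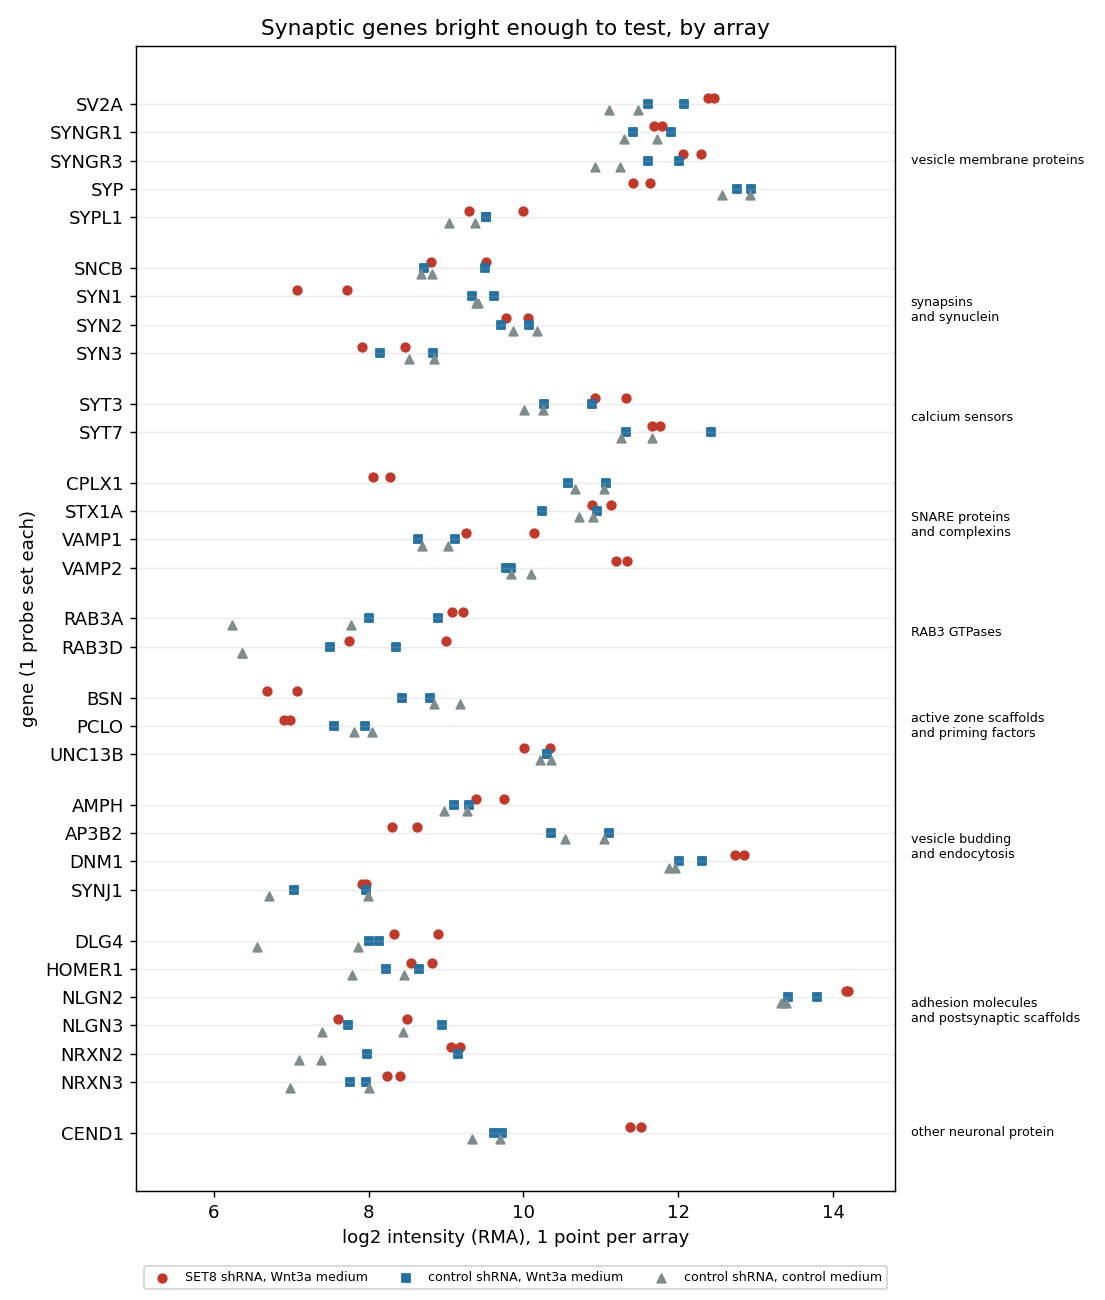
log2 intensity (x axis) of the 31 tested genes (y axis, 1 probe set each, grouped by role), with 1 point for each of the 6 arrays; circles are SET8 shRNA with Wnt3a medium, squares control shRNA with Wnt3a medium, triangles control shRNA with control medium. CPLX1, AP3B2, SYN1, SYP and BSN have both circles to the left of the other 4 points, and VAMP2 and CEND1 have both to the right.

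The first comparison set SET8 shRNA against control shRNA, both in Wnt3a medium, and asks what lowering SET8 changes. The lower genes encode a complexin, an adaptor subunit, a synapsin, a vesicle membrane protein and an active zone scaffold. In all, 5 of the 46 genes (10.9%) had both SET8 shRNA arrays at least 1.5-fold below both control shRNA arrays, namely CPLX1, AP3B2, SYN1, SYP and BSN. On the higher side stood 2 (4.35%), VAMP2 and CEND1, and 39 did not separate in this way. Over all genes on the array 1.56% were lower and 1.47% higher by the same rule, and over the 13071 tested genes 1.62% and 1.65%. The list was chosen with this comparison known, so nothing is read from these shares. In limma 0 of 23808 probe sets had an adjusted p under 0.05 here, with 1705 at an unadjusted p under 0.05. The members moved in both directions, with log2 differences from -2.65 to 1.78. The median log2 difference of the 31 tested genes was 0.37, with 21 of them above 0. Over all tested genes the median was 0, and 50.7% were above 0. With no filter on dim genes the members' median was 0.12. As fewer arrays then have to separate, leaving out single arrays brought more genes to the rule. There were 9 or 11 genes when replicate 1 or replicate 2 of SET8 shRNA was left out, and 18 or 11 when replicate 1 or replicate 2 of control shRNA in Wnt3a medium was. The 7 genes were among them each time, as the rule requires.

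CPLX1, complexin 1, which binds the assembled SNARE complex, read 8.27 and 8.06 in the SET8 shRNA arrays, against 10.58 and 11.06 in the control shRNA arrays in Wnt3a medium. In control medium it read 10.67 and 11.04. The SET8 shRNA arrays were the 2 lowest by a wide margin, and the arrays of the control shRNA overlapped between the media. The difference between the shRNAs was -2.65 on the log2 scale (SE 0.27), or 6.29-fold lower. Its single probe set is annotated to chromosome 4, 768744 to 809945, in hg18. In the same build the brightest probe sets of the other lower genes lie at 81125087 to 81175689 on chromosome 15 (AP3B2), 47317206 to 47364201 on chromosome X (SYN1), 48931208 to 48943605 on chromosome X (SYP) and 49566925 to 49683982 on chromosome 3 (BSN). The related complexin CPLX2 was dim, with 6.71 and 6.39 in the SET8 shRNA arrays against 6.66 and 7.19 in the control shRNA arrays in Wnt3a medium. Its second, still dimmer probe set read 4.98 and 5.50 in the SET8 shRNA arrays against 7.13 and 6.69 in the control shRNA arrays in Wnt3a medium and did not overlap.

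AP3B2, the neuronal beta subunit of the AP-3 adaptor that sorts vesicle cargo, had 2 probe sets. The brighter gave 8.63 and 8.30 in the SET8 shRNA arrays, against 10.36 and 11.11 in the control shRNA arrays in Wnt3a medium. It gave 10.54 and 11.04 in control medium. The difference between the shRNAs was -2.27 (SE 0.33), 4.83-fold lower. The second probe set gave -2.45 (SE 0.28), with 8.04 and 7.37 in the SET8 shRNA arrays against 10.14 and 10.16 in the control shRNA arrays in Wnt3a medium. Both probe sets placed the SET8 shRNA arrays below all others.

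SYN1, synapsin I, which ties vesicles to the actin cytoskeleton, read 7.72 and 7.07 in the SET8 shRNA arrays, against 9.33 and 9.62 in the control shRNA arrays in Wnt3a medium. The control medium arrays read 9.39 and 9.41, inside the range of the Wnt3a medium arrays. The difference between the shRNAs was -2.08 (SE 0.29), 4.24-fold lower, and -1.48 (SE 0.23) on the second probe set. The other synapsins stood apart from SYN1: SYN2 read 9.78 and 10.06 in the SET8 shRNA arrays against 10.07 and 9.71 in the control shRNA arrays in Wnt3a medium. SYN3 read 7.92 and 8.47 in the SET8 shRNA arrays against 8.15 and 8.83 in the control shRNA arrays in Wnt3a medium. In both genes the groups overlapped. The difference was 0.03 for SYN2 and -0.30 for SYN3, whose 4 probe sets gave values from -0.57 to 0.13.

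SYP, synaptophysin, an abundant protein of the vesicle membrane, read 11.64 and 11.41 in the SET8 shRNA arrays, against 12.76 and 12.94 in the control shRNA arrays in Wnt3a medium and 12.92 and 12.56 in control medium. The difference between the shRNAs was -1.33 (SE 0.25), 2.51-fold lower. SYP stayed well above the array median under SET8 shRNA. BSN, the active zone scaffold bassoon, read 7.08 and 6.69 in the SET8 shRNA arrays, against 8.43 and 8.79 in the control shRNA arrays in Wnt3a medium and 8.84 and 9.18 in control medium. The difference was -1.73 (SE 0.27), 3.32-fold lower, and the SET8 shRNA arrays lay below the array median. PCLO, the related scaffold piccolo, read 6.91 and 6.98 in the SET8 shRNA arrays against 7.55 and 7.95 in the control shRNA arrays in Wnt3a medium, a difference of -0.81 (SE 0.25). Its groups did not overlap, but the smallest gap was 1.48-fold, just short of the 1.5-fold used here. The dimmer probe sets of PCLO gave 0.17 and -0.04, and their groups overlapped.

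The 2 genes on the higher side were separated as clearly. VAMP2, synaptobrevin 2, the SNARE protein of the vesicle, read 11.34 and 11.20 in the SET8 shRNA arrays, against 9.84 and 9.78 in the control shRNA arrays in Wnt3a medium and 9.84 and 10.10 in control medium. The difference between the shRNAs was 1.46 (SE 0.23), 2.75-fold higher, and the other 2 probe sets gave 1.25 and 1.47. CEND1, listed in the files under its older name BM88 and known for a part in cell cycle exit of neuronal precursors, read 11.38 and 11.52 in the SET8 shRNA arrays. It read 9.62 and 9.72 in the control shRNA arrays in Wnt3a medium and 9.70 and 9.34 in control medium. The difference was 1.78 (SE 0.24), 3.42-fold higher, with 1.76 on the second probe set. VAMP2 and CPLX1 act in the same SNARE complex and lay on opposite sides, while STX1A, the syntaxin of that complex, read 10.88 and 11.13 in the SET8 shRNA arrays against 10.95 and 10.24 in the control shRNA arrays in Wnt3a medium and overlapped. VAMP1, the close relative of VAMP2, read 10.13 and 9.26 in the SET8 shRNA arrays against 9.12 and 8.64 in the control shRNA arrays in Wnt3a medium, which left a gap of 1.10-fold.

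**Figure D2:**
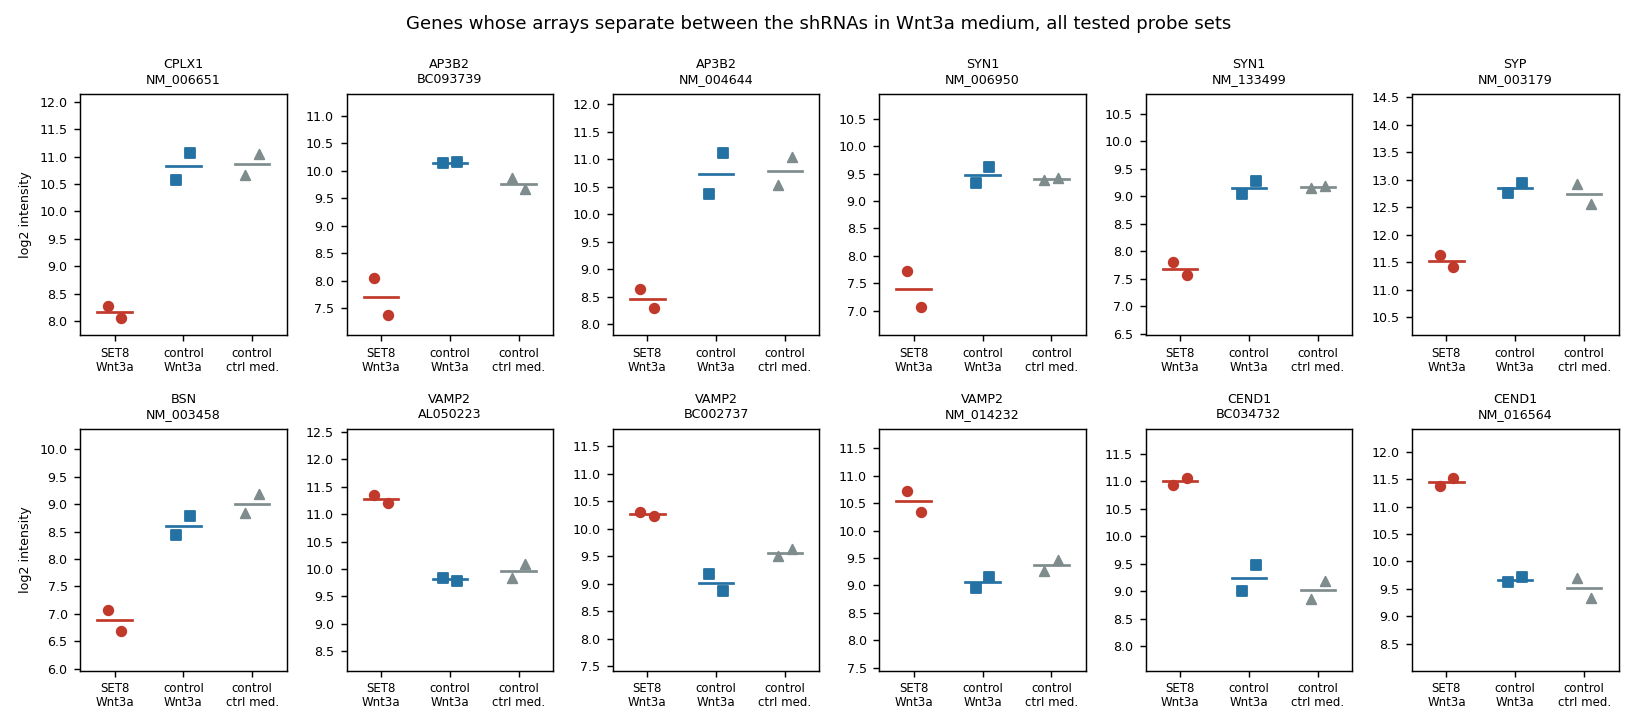
log2 intensity (y axis, each panel spanning the same range around its own mean) in the 3 groups (x axis) for all 12 tested probe sets of the 7 genes whose arrays separate between the shRNAs in Wnt3a medium; points are arrays and bars are group means. Every probe set of CPLX1, AP3B2, SYN1, SYP and BSN is lowest under SET8 shRNA and every probe set of VAMP2 and CEND1 is highest there.

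Some markers of endocrine secretory cells were lower beside the 5 lower genes. Of 5 neuroendocrine markers CHGA, CHGB and PCSK1 met the 1.5-fold rule on the lower side, 3 in all. SCG2, at -0.75, and SCG3, at 0.12, were dim and their groups overlapped. CHGA read 6.75 and 6.60 in the SET8 shRNA arrays against 8.18 and 9.38 in the control shRNA arrays in Wnt3a medium. CHGB read 6.37 and 5.35 in the SET8 shRNA arrays against 8.40 and 9.13 in the control shRNA arrays in Wnt3a medium, and the dim PCSK1 differed by -1.12. The summed intensity of the 5 markers was 245 to 293 in the SET8 shRNA arrays and 817 to 1390 in the control shRNA arrays in Wnt3a medium. The 11 neuronal markers summed to 26400 to 26700 in SET8 shRNA arrays and 29200 to 31900 in control shRNA arrays in Wnt3a medium. None of them separated. This sum mostly reflects TUBB3 and UCHL1, the brightest of them, and the median log2 difference of the 11 was 0.03. Among blood markers HBA1 and CD68 were lower, 2 of 4, and PTPRC and HBB were dim. The part of such cells in the result was not tested, and in bulk RNA fewer cells of a type and less RNA per cell cannot be told apart.

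Promoters of genes that were low together are shown because REST is the known repressor of several of them and its element can be looked for in the letters. The table of promoters used here, from RefSeq (GRCh38.p14), spans 250 bases before to 50 after the start and matched 39 of the 46 genes. The promoters of CPLX1, SYNGR3, SYN3, SYT7, SNAP25, NRXN2 and RIMS2 were not analysed here. Capitals mark matches, on either strand, to AGCACC and GGACAG, the left and right cores of RE1, and to CTTTGA, the core of sites for the Wnt effectors TCF and LEF. Both RE1 cores in order with 2 bases between them were also counted, as a joint motif that overlaps its cores.
SYN1 promoter: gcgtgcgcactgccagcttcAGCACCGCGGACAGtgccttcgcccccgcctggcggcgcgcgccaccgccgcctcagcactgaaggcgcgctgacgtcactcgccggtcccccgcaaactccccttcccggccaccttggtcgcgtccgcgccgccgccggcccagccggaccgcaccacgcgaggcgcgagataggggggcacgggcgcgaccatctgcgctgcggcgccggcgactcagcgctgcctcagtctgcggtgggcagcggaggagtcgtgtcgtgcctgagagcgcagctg
BSN promoter: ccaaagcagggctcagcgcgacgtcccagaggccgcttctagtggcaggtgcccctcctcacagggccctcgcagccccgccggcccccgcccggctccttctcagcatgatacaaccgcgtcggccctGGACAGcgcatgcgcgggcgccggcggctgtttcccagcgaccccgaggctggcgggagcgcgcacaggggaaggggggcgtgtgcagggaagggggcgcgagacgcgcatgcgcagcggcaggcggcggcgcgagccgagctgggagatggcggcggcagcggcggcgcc
AP3B2 promoter: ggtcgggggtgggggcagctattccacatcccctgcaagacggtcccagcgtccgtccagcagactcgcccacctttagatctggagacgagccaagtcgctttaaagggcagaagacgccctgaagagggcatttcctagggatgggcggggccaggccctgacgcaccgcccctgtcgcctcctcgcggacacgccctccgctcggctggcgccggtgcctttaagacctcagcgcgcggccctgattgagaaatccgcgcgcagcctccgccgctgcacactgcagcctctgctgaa
SYP promoter: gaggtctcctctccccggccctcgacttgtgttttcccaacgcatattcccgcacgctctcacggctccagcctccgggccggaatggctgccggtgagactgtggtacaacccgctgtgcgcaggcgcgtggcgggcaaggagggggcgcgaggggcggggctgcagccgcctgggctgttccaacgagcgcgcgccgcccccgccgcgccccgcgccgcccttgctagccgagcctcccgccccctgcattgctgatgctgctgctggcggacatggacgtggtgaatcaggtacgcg
The windows are chrX:47619808-47620107, minus strand for SYN1; chr3:49554227-49554526, plus strand for BSN; chr15:82709826-82710125, minus strand for AP3B2; and chrX:49200144-49200443, minus strand for SYP. SYN1 was the 1 promoter of the 39 that held the joint motif (2.56%), which 16 of 27305 promoters held (0.0586%). BSN held the right core alone. AGCACC stood in 11 of the 39 (28.2%) and in 15.8% of all promoters, GGACAG in 8 (20.5%) and in 20.5%, and CTTTGA in 1, SYT3 (2.56%), and in 13.1%. Among promoters of tested genes the shares were 15.4%, 20.3% and 8.06% in this order. The median GC content was 68.3% for the 39 promoters and 58.3% for all, and its part in these shares was not tested. AP3B2, SYP, VAMP2 and CEND1 held none of these motifs in the window. A match is a description of the sequence and not a bound site. REST itself read 7.82 and 7.68 in the SET8 shRNA arrays, 7.46 and 6.83 in the control shRNA arrays in Wnt3a medium and 7.27 and 7.80 in control medium, a difference between the shRNAs in Wnt3a medium of 0.60 (SE 0.31) with a smallest gap of 1.16-fold. Its SET8 shRNA and control medium arrays overlapped.

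In the second comparison the SET8 shRNA arrays were set against the control medium arrays, so that shRNA and medium both differ. It shares the SET8 shRNA arrays with the first. Of the 46 genes, 11 (23.9%) had both SET8 shRNA arrays at least 1.5-fold above both control medium arrays and 6 (13.0%) had them below, while 29 did not separate. Over all genes on the array 3.15% were higher and 2.12% lower, and over the tested genes 3.52% and 1.84%; again nothing is read from the shares. In the limma fit 12 of 23808 probe sets (0.0504%) had an adjusted p under 0.05 here, and 0 without either SET8 shRNA array or with no filter. The lower 6 were the 5 genes above and PCLO. PCLO read 6.91 and 6.98 in the SET8 shRNA arrays against 8.04 and 7.81 in control medium, a difference of -0.98 (SE 0.25). Its dimmer probe sets gave 0.10 and -0.66 and did not meet the rule. Against control medium CPLX1 differed by -2.69 (SE 0.27), AP3B2 by -2.33 (SE 0.33), BSN by -2.13 (SE 0.27), SYN1 by -2.01 (SE 0.29) and SYP by -1.21 (SE 0.25). VAMP2 and CEND1 differed by 1.30 (SE 0.23) and 1.93 (SE 0.24). The median of the 31 tested genes was 0.45, beside 0.02 over all tested genes. Among markers, GAP43 and ENO2 were higher by the same rule, 2 of 11 neuronal ones, at 1.57 (SE 0.34) and 1.16 (SE 0.23). The summed neuronal intensity was 26400 to 26700 in the SET8 shRNA arrays and 27800 to 28200 in control medium. That sum mostly reflects TUBB3 at -0.34 (SE 0.24) and UCHL1 at -0.22 (SE 0.24). The median log2 difference of the 11 was 0.42, of the opposite sign. Of the neuroendocrine markers 4 of 5 were lower, with summed intensities of 245 to 293 in the SET8 shRNA arrays and 910 to 1280 in control medium. The dim SCG3 was among them at -0.91, and differed by -1.03 between the media with control shRNA. SCG2, also dim, was at -0.07 and overlapped. Lower too were 3 of 6 fibroblast markers, COL1A2 at -2.97, COL3A1 at -1.24 and DCN at -1.75, and 2 of 4 blood markers, HBA1 at -1.43 and CD68 at -1.05. Of 5 glial markers AQP4 and SOX10, both dim, were higher, at 1.10 and 1.05. The part of such cells in the result was not tested.

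The other higher genes were RAB3A, RAB3D, NRXN2, SYNGR3, SV2A, SYT3, DNM1, NLGN2 and the dim SYT11. For these the control shRNA arrays in Wnt3a medium lay, on average, between the other groups on the brightest probe set. RAB3A, the GTPase that guides vesicles to the active zone, read 9.08 and 9.22 in the SET8 shRNA arrays, 8.90 and 8.0 in the control shRNA arrays in Wnt3a medium and 7.77 and 6.23 in control medium. The control medium arrays were 1.54 log2 units apart, and the difference of 2.15 (SE 0.51) between the outer groups was 1.38 without control medium replicate 2. RAB3D, a relative found in secretory granules, read 7.74 and 9.00 in the SET8 shRNA arrays, 8.35 and 7.50 in the control shRNA arrays in Wnt3a medium and 6.36 in both control medium arrays. It lay below the array median in control medium, and the difference between the outer groups was 2.01 (SE 0.45).

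NRXN2, a presynaptic adhesion receptor, read 9.18 and 9.07 in the SET8 shRNA arrays, 7.98 and 9.15 in the control shRNA arrays in Wnt3a medium and 7.10 and 7.39 in control medium, with an outer difference of 1.87 (SE 0.38). NLGN2, a postsynaptic partner of neurexins at inhibitory synapses, read 14.19 and 14.16 in the SET8 shRNA arrays, 13.41 and 13.79 in the control shRNA arrays in Wnt3a medium and 13.39 and 13.32 in control medium, a difference of 0.82 (SE 0.24). The vesicle protein SYNGR3, a synaptogyrin, read 12.29 and 12.06 in the SET8 shRNA arrays, 11.61 and 12.01 in the control shRNA arrays in Wnt3a medium and 10.93 and 11.25 in control medium, an outer difference of 1.09 (SE 0.26), and its second probe set gave 1.22.

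SV2A, a vesicle glycoprotein that binds the drug levetiracetam, read 12.38 and 12.46 in the SET8 shRNA arrays, 12.07 and 11.61 in the control shRNA arrays in Wnt3a medium and 11.48 and 11.10 in control medium, a difference of 1.13 (SE 0.27) between the outer groups. On its second probe set the same groups overlapped, with a difference of 0.86. SYT3, a synaptotagmin, read 11.32 and 10.92 in the SET8 shRNA arrays, 10.26 and 10.88 in the control shRNA arrays in Wnt3a medium and 10.01 and 10.25 in control medium, a difference of 0.98 (SE 0.30). It no longer met the 1.5-fold rule when each array was centred on its median. DNM1, the neuronal dynamin that pinches off vesicles, read 12.73 and 12.85 in the SET8 shRNA arrays, 12.30 and 12.01 in the control shRNA arrays in Wnt3a medium and 11.96 and 11.88 in control medium, a difference of 0.87 (SE 0.23). Its second probe set gave 0.59 (SE 0.51), with a smallest gap of 1.02-fold. SYT11 was dim throughout, with 7.02 and 6.76 in the SET8 shRNA arrays, 5.94 and 6.49 in the control shRNA arrays in Wnt3a medium and 4.67 and 5.40 in control medium. Of its dimmer probe sets, 1 gave 1.27 between the outer groups and met the rule. The other gave 0.52 with a smallest gap of 1.06-fold, and its control shRNA mean was 5.01 in Wnt3a medium and 5.32 in control medium.

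**Figure D3:**
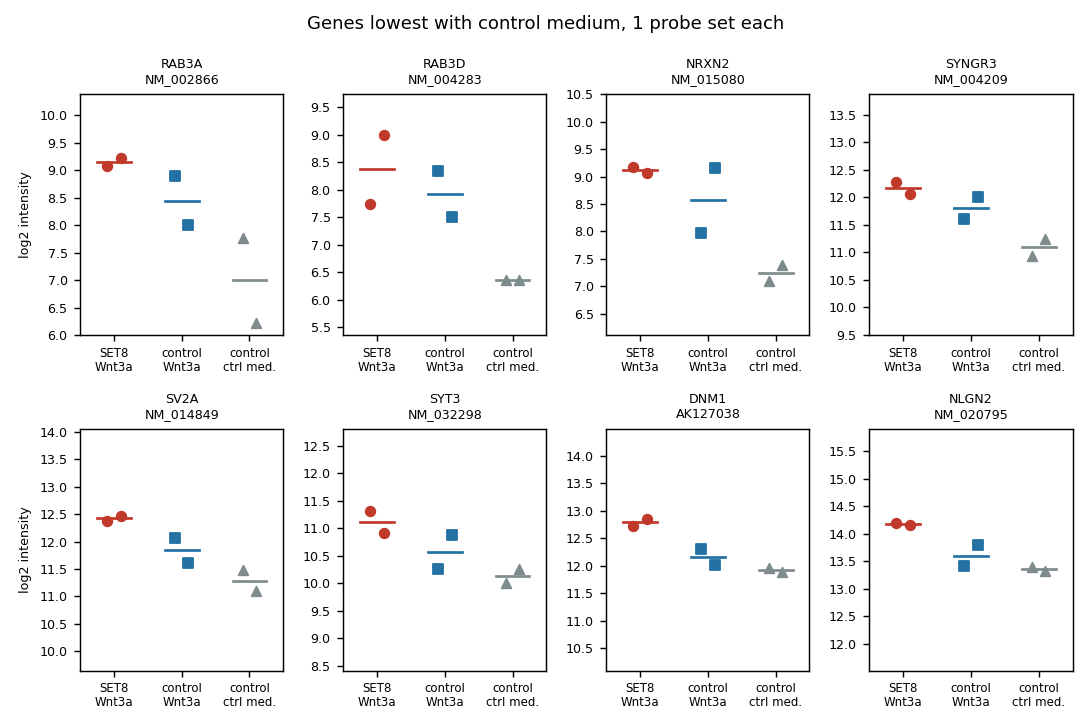
log2 intensity (y axis, each panel spanning the same range around its own mean) in the 3 groups (x axis) for 8 tested genes whose SET8 shRNA arrays lie at least 1.5-fold above the control medium arrays; points are arrays and bars are group means. The mean of the control shRNA arrays in Wnt3a medium falls between the other 2 means in each panel, and the RAB3A, RAB3D and NRXN2 panels show the widest spread between replicates.

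The third comparison set Wnt3a medium against control medium, both with control shRNA, and asks which of these genes respond to Wnt3a. Only RAB3D met the 1.5-fold rule, 1 of 46 on the higher side (2.17%) and 0 on the lower, beside 1.28% higher and 0.975% lower over all genes on the array. Over the tested genes 0.62% were higher and 0.153% lower. A single gene gives no result about the members as a group. RAB3D differed by 1.56 (SE 0.45). By unadjusted p the next tested gene was NRXN2 at 1.31 (SE 0.38), whose smallest gap fell just short of 1.5-fold. Then came RAB3A at 1.45 (SE 0.51) and SYNGR3 at 0.72 (SE 0.26). These 4 had an unadjusted p under 0.05 in limma, but 0 of the 31 tested genes passed once p-values were adjusted over the 23808 probe sets, the smallest adjusted p among them being 1.0. No probe set of the whole array passed here in limma, with 510 at an unadjusted p under 0.05. The rule was met by 10 or 3 of the 46 genes when replicate 1 or replicate 2 in Wnt3a medium was left out, and by 4 or 5 when replicate 1 or replicate 2 in control medium was. RAB3D was among them each time, as the rule requires. Of 6 fibroblast markers 3 were lower in Wnt3a medium, COL1A2, COL3A1 and DCN, and none of the 11 neuronal markers separated. Higher were 2 of 5 glial markers, AQP4 at 1.38 and SOX10 at 1.21, and 1 of 4 blood markers, PTPRC at 0.96, all of them dim. The part of such cells was not tested.

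The 7 genes that separated the shRNAs lay between -0.40 and 0.15 between the media on their brightest tested probe sets. CPLX1 was at -0.03 (SE 0.27), AP3B2 at -0.06 (SE 0.33), SYN1 at 0.08 (SE 0.29), SYP at 0.11 (SE 0.25), BSN at -0.40 (SE 0.27), VAMP2 at -0.16 (SE 0.23) and CEND1 at 0.15 (SE 0.24). Each was within 2 SE of 0. The BSN arrays did not overlap, with both Wnt3a medium arrays below both control medium arrays and a smallest gap of 1.03-fold. The second probe set of AP3B2 gave 0.38 (SE 0.28), and the other probe sets of VAMP2 gave -0.54 (SE 0.23), which is over 2 SE, and -0.31 (SE 0.25). The median over the 31 tested genes was 0.15, beside 0.02 over all tested genes. Because the 3 comparisons share arrays in pairs, their values stand side by side here and are not correlated with each other.

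**Figure D4:**
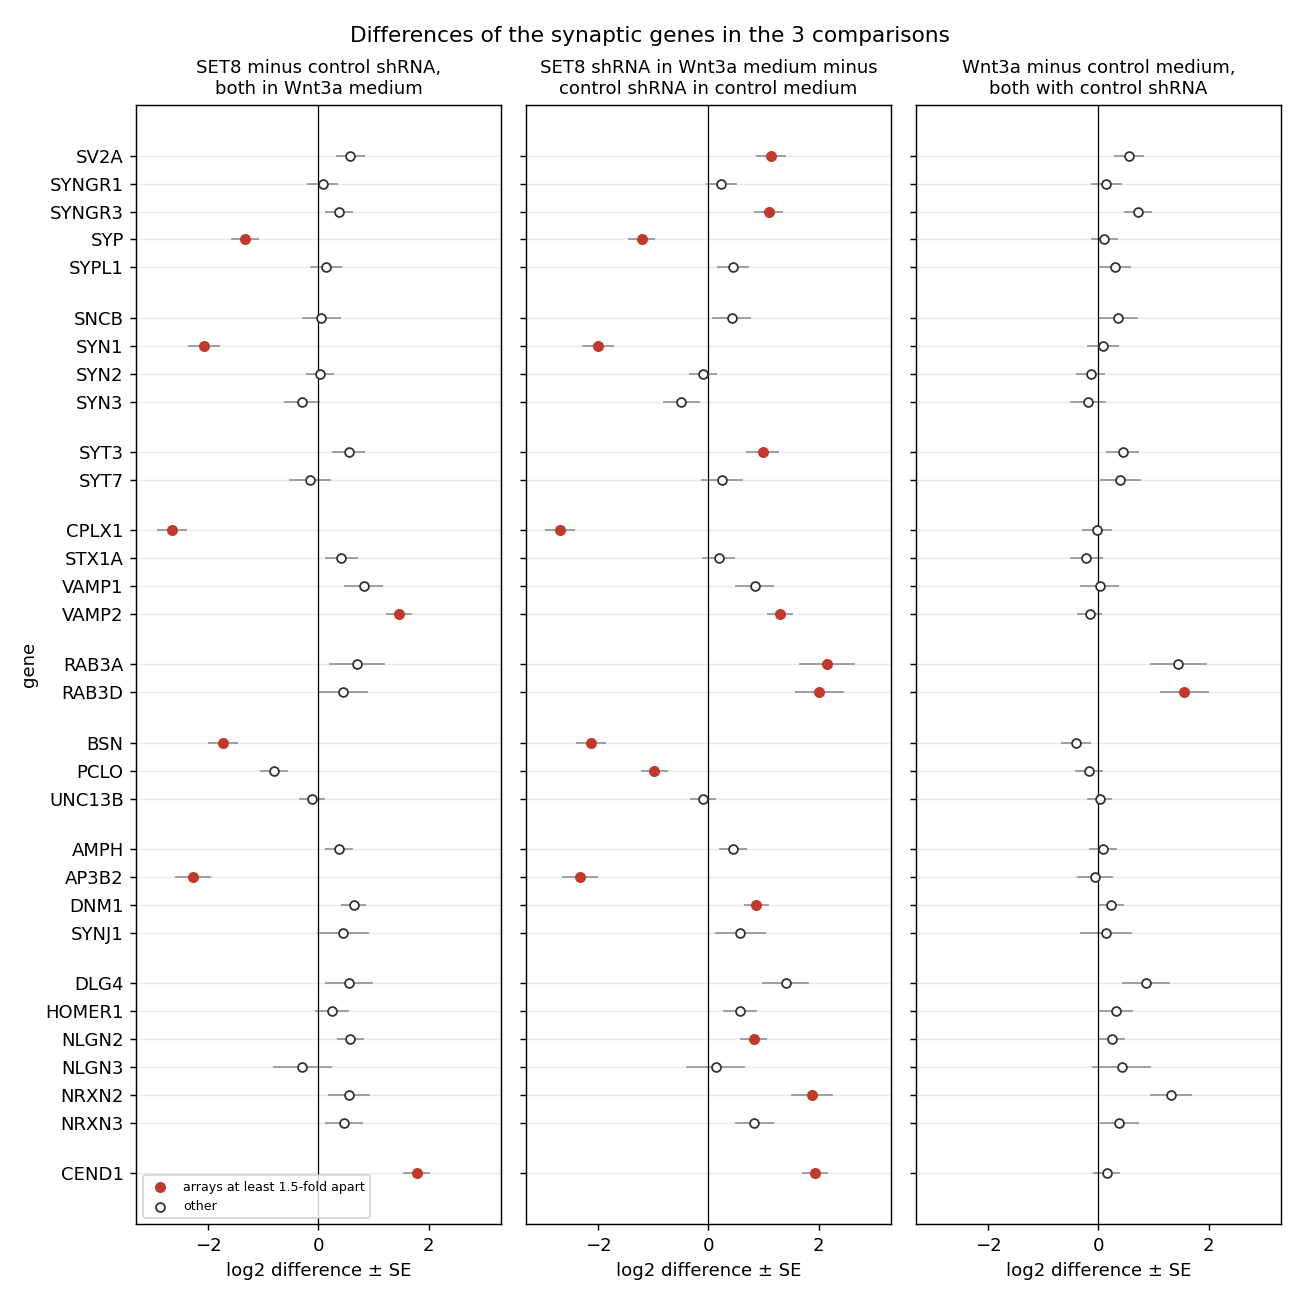
log2 difference with its moderated SE (x axis) of the 31 tested genes (y axis) in the 3 comparisons (panels); filled points have both arrays of one group at least 1.5-fold from both arrays of the other. There are 7 filled points in the left panel, 16 in the middle panel and 1, RAB3D, in the right panel.

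Of the 31 tested genes 15 met the 1.5-fold rule in no comparison. Those named first are SYNGR1, SYT7 and STX1A, whose probe sets had the highest mean signals. SYNGR1 read 11.79 and 11.68 in the SET8 shRNA arrays, 11.41 and 11.90 in the control shRNA arrays in Wnt3a medium and 11.30 and 11.72 in control medium. SYT7, a slow calcium sensor with high affinity, read 11.76 and 11.66 in the SET8 shRNA arrays, 11.32 and 12.42 in the control shRNA arrays in Wnt3a medium and 11.26 and 11.66 in control medium. In both genes the range between the control shRNA replicates covered or nearly covered the SET8 shRNA arrays. STX1A read 10.90 and 10.72 in control medium and overlapped the SET8 shRNA arrays. UNC13B, a priming factor, read 10.34 and 10.01 in the SET8 shRNA arrays, 10.30 in both control shRNA arrays in Wnt3a medium and 10.21 and 10.35 in control medium on its brighter probe set. A second probe set of UNC13B read 9.24 and 9.74 in the SET8 shRNA arrays, 10.29 and 8.37 in the control shRNA arrays in Wnt3a medium and 10.37 and 8.84 in control medium, so the control shRNA arrays differed more between replicates than between groups. Between the shRNAs in Wnt3a medium the remaining differences were 0.37 (SE 0.25) for AMPH, amphiphysin, 0.13 (SE 0.29) for SYPL1, a synaptophysin relative found in many tissues, and 0.46 (SE 0.35) for NRXN3. NLGN3 was at -0.29 (SE 0.53), and HOMER1, a postsynaptic scaffold, at 0.25 (SE 0.31) with -0.32 (SE 0.28) on its second probe set. The dimmer probe set of AMPH gave 0.85 (SE 0.25), with a smallest gap of 1.41-fold, short of the 1.5-fold rule.

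Replicate spread set the limit for several members. SNCB, a synuclein among the 46, read 9.52 and 8.80 in the SET8 shRNA arrays against 8.72 and 9.50 in the control shRNA arrays in Wnt3a medium and overlapped. DLG4, the postsynaptic scaffold PSD-95, read 8.33 and 8.90 in the SET8 shRNA arrays, 8.14 and 8.0 in the control shRNA arrays in Wnt3a medium and 7.86 and 6.56 in control medium. A dim second probe set of DLG4 and one of NLGN1 separated SET8 shRNA from control medium, at 1.40 and 0.84, while their brighter probe sets did not. SYNJ1, the phosphatase that helps uncoat vesicles, read 7.91 and 7.96 in the SET8 shRNA arrays, 7.96 and 7.03 in the control shRNA arrays in Wnt3a medium and 7.99 and 6.71 in control medium. For SYNJ1 and RAB3A replicate 2 was the lower array with control shRNA in both media. Over 2-fold between replicates were 1 of the 31 tested genes with SET8 shRNA, 3 with control shRNA in Wnt3a medium and 5 with control medium. The median absolute difference between replicates was 0.25, 0.43 and 0.33 log2 units in the same order, beside 0.27, 0.36 and 0.33 over all tested genes.

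**Figure D5:**
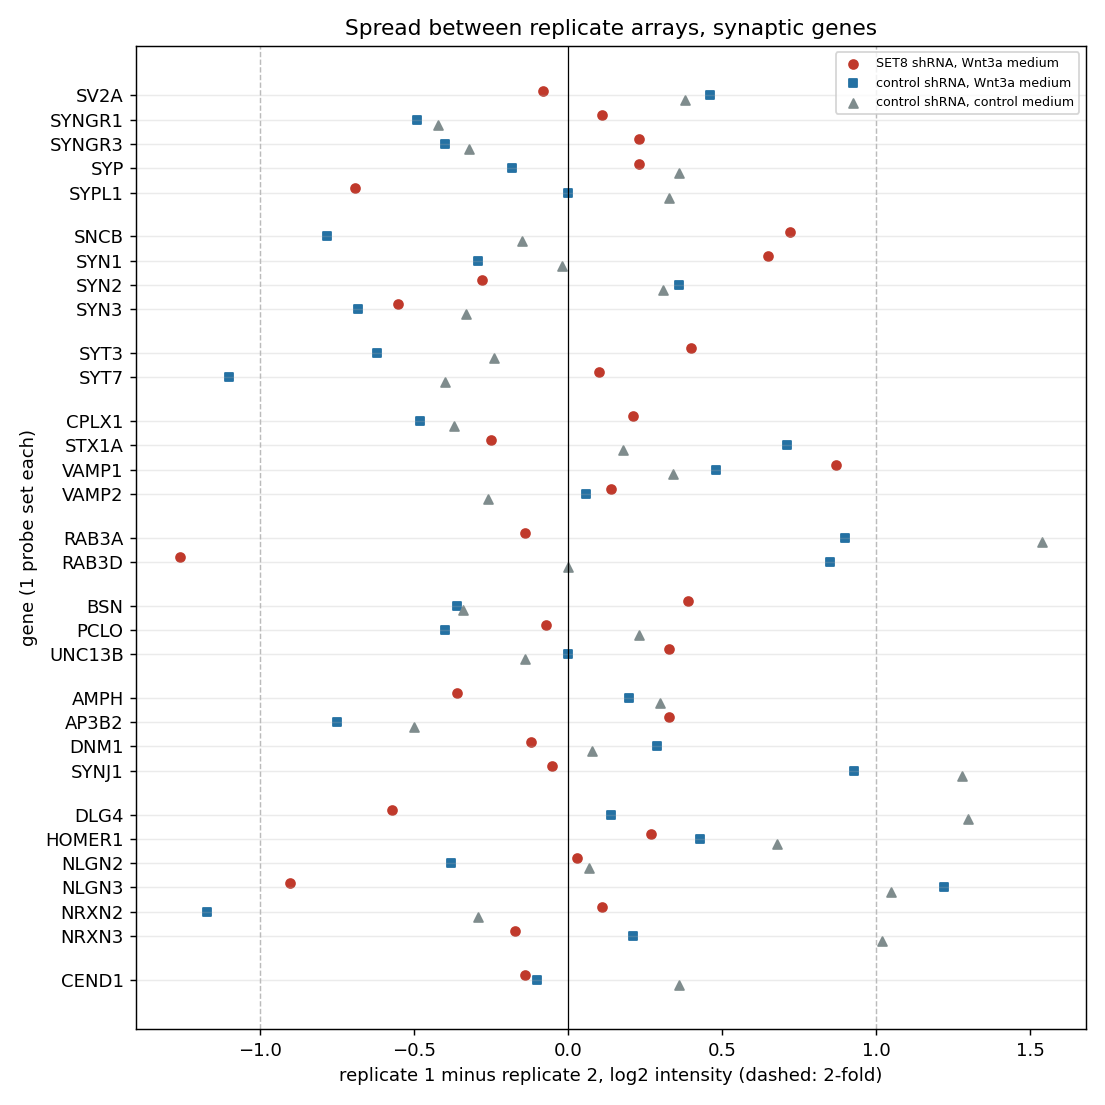
Replicate 1 minus replicate 2 in log2 intensity (x axis) of the 31 tested genes (y axis) in each group; dashed lines mark 2-fold. In control medium RAB3A, SYNJ1, DLG4, NLGN3 and NRXN3 pass 2-fold, and RAB3D alone does so with SET8 shRNA.

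A wider list of 123 other genes of vesicle release, recycling and the synapse, none of them members, gave the setting. Of these 76 were tested. Between the shRNAs in Wnt3a medium 3 of the 123 were lower (2.44%) and 6 higher (4.88%) by the 1.5-fold rule, and 114 did not separate. Among the tested ones were RAB3IP, an exchange factor for RAB8, at 1.48 (SE 0.31), DLGAP3, a postsynaptic scaffold, at -1.15 (SE 0.32), and DNM3, a further dynamin, at -0.98 (SE 0.23). Of the other AP-3 subunits, partners of AP3B2 or of its relative AP3B1 in the adaptor, none met the rule: AP3D1 was at 0.88 (SE 0.29), AP3M2 at 0.32 (SE 0.25), AP3M1 at -0.08 (SE 0.33), AP3B1 at -0.19 (SE 0.32), AP3S2 at -0.58 (SE 0.23) and AP3S1 at -0.74 (SE 0.24). Against control medium 8 of the 123 were higher (6.5%) and 2 lower (1.63%), among them PPFIA4 at 2.27 (SE 0.48) and PRRT2 at 0.97 (SE 0.24). Between the media 3 were higher (2.44%) and 1 lower (0.813%), beside 1.28% and 0.975% over all genes on the array. DNM3 was the only tested one of these, at 1.22 (SE 0.23). It entered the test only through the control shRNA arrays in Wnt3a medium, the group where it was highest. DLGAP3 was above the array median in no SET8 shRNA array, and PPFIA4 in no control medium array. The counts of this list are therefore given over all 123 genes, dim ones included. The median of the 76 was 0.04, 0.08 and 0.05 in the 3 comparisons in this order.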

How the data were processed

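Per the labels, total RNA was labelled with Cy3 and hybridised to 6 NimbleGen arrays. Each array has its own intensities from the authors, with 1 linear-scale value for every probe set. Per the submitters' processing notes these values were made with the method RMA (robust multi-array average). Its version and settings are not given in the sources used here. Their value table holds the same intensities, with a largest difference of 0. Nearly all probe sets have 3 probes, and their positions refer to hg18 per the file headers. A further column, labelled a standard error, has no stated scale and was not used, nor was the random control probe set in any test. Gene names were updated by Entrez gene ID with RefSeq (86.4% of probe sets matched).

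Deposited intensities were log2-transformed as they stand. A model of 3 groups was fitted to the 23808 tested probe sets with limma 3.58.1 in R 4.3.3, which gave the log2 differences and moderated SEs, and p-values were adjusted by Benjamini-Hochberg. The fit was tested on simulated data. A gene is given by its tested probe set of highest mean, and further probe sets where they bear on it. Genes with separated arrays (1.5-fold) and the 3 brightest others are named with all values. A permutation test of 2 against 2 arrays cannot give a p under 0.333, so none was run. Intensities of different probe sets were used to choose which are named and were summed over marker lists, and are not otherwise compared. The number of arrays limits the precision. The members, lists and rules were chosen with earlier results of these data known. Alternatives were other scalings, filters, offsets, fits and left-out arrays. Some genes of the wider synaptic list are not reported here by name.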

Additional observations from a re-analysis of the deposited data

How the results depend on the processing

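None of the 24 differences of genes with separated arrays changed sign in any alternative. Of 381 values 373 moved by less than the replicate SD. Most of this was fixed in advance, so it is no sign of stability. Filters, blocks and the choice of fit leave a difference of group means unchanged unless they remove the gene. For separated arrays, leaving out a single array cannot reverse the sign or shift the value by more than the replicate SD. The 7 genes of the SET8 comparison met the 1.5-fold rule under both other scalings and the offset. Among tested members their median of 0.37 was 0.25 with the filter at the 60th percentile and 0.12 with no filter, by the construction of fewer or more genes, and 0.24 to 0.37 when single arrays were left out, with 7 to 15 members separated. Against control medium the median of 0.45 was 0.32 to 0.65 and the 16 separated members were 16 to 20 when single arrays were left out, and 9 at 2-fold. Between the media the median was 0.09 to 0.28 and the count 1 to 6 without single arrays. That count was 0 with the 60th percentile filter, which removes RAB3D. Under the replicate block it was 4 (SYNGR3, NRXN2, RAB3A and RAB3D), counting same-numbered pairs that each differ by 1.5-fold. Crossing the SET8 shRNA numbers, an alternative chosen after seeing the data, leaves these pairs and so this count unchanged.

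Probe sets past an adjusted p of 0.05 in limma numbered 0 between the shRNAs, 12 for SET8 shRNA against control medium and 0 between the media. In the same order of comparisons they were 0, 0 and 0 with the replicate block, 182, 792 and 3 with crossed numbers, and 15, 31 and 2 with an intensity trend. With the 4 arrays of a comparison alone they were 28, 230 and 0, with the 60th percentile filter 0, 52 and 2, with the offset of 50 0, 56 and 2, with quantile normalisation 0, 6 and 0, and with no filter 0, 0 and 0. Leaving out an array of the group not compared gave the same counts as the 4 arrays alone. The 1 array left in that group adds nothing to the estimated spread. The labels give same-numbered arrays nothing in common but the number; the difference between replicates 1 and 2 correlated across probe sets at 0.75 between the media and at -0.29 between SET8 shRNA and either control shRNA group. Why the counts shift with the settings was not tested.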
